A study of Mus musculus with 9 samples.

Results

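Most of the genes described here build cilia or switch on the genes that do. They comprise every gene on the array with a symbol of the Ift, Bbs or Dnah families, together with Foxj1, Rfx2, Rfx3, Dynlrb2 and Pltp, of which Foxj1, Dynlrb2 and Pltp are also used as ependymal markers. Membership was set by gene name and not by a signal threshold. The families and the 5 named genes were chosen with earlier results of these data known. The set holds 37 of 18193 measured genes, namely 14 Ift, 8 Bbs and 10 Dnah genes and the 5 named genes. A further probe set that matches both Dnah7b and Dnah7c was left out, because it cannot be assigned to 1 gene.

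RNA from 9 mouse samples was measured, 3 in each of 3 groups, all of strain C57BL/6. The wild-type neural stem cell (NSC) cultures were taken from the third ventricle zone (TVZ) of Nf1flox/flox pups at postnatal day 1 and were given LacZ virus as control. The Nf1-null NSC came from the same kind of pups and were given a Cre virus, which deletes the floxed Nf1 gene in culture. Stem cells of optic glioma, called optic glioma stem cells (GSC), were grown from tumours of the optic nerve of Nf1+/-GFAP CKO mice that were 3 months old, a model in which the GFAP promoter drives Cre, so that Nf1 is lost in Gfap-expressing cells while all other cells of the animal keep 1 copy. All cells grew in low-attachment dishes with N2, B27, FGF at 20 ng/ml and EGF at 20 ng/ml. The GSC therefore differ from both NSC groups in tumour origin, brain region, age of the animal, virus and genotype at once, and these cannot be told apart. The labels speak of independent cultures for the NSC and say nothing of separate tumours for the GSC, so p-values measure the spread between these samples, which may in part be technical.

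A cilium is a thin projection built around microtubules. Resting neural stem cells typically carry a single immotile primary cilium, which receives Hedgehog and other signals and is taken down before division, whereas ependymal cells lining the ventricles carry tufts of motile cilia that move cerebrospinal fluid. Both kinds are built by intraflagellar transport (IFT), trains of IFT-A and IFT-B proteins that carry cargo along the axoneme, while the BBSome moves membrane proteins through the cilium. Axonemal dyneins, whose heavy chains are the Dnah proteins, power beating and are needed only by motile cilia, and transcription factors of the Foxj1 and Rfx families switch on the genes of the ciliary programme.

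As a check of the groups, Nf1 signals were 1139.5, 919.5 and 999.9 on the wild-type arrays, 430.3, 646 and 577 on the Nf1-null arrays and 623, 600.1 and 549 on the GSC arrays. Every Nf1-null and GSC array lay below every wild-type array, with log2 differences from wild-type NSC of -0.90 ± 0.19 (moderated SE throughout; adjusted p = 0.123) and -0.78 ± 0.19 (adjusted p = 0.0441, or 0.0783 with replicate number as a block). Whether the Nf1 probe set lies in the deleted part of the gene was not known here. All 13 measured neural stem cell markers were among the brighter 50% of genes, and Sox2 lay at 28137 to 49794 over the 9 arrays. Of 20 ependymal markers only 8 were among the brighter 50%. Tmem212 and Ccdc153, which mark mature ependymal cells, gave 8.4 to 81.3 and 5.1 to 85.4, within the dimmest 25% of genes. Ccdc113, Fam183b, 1700012B09Rik, Enkur and Hdc were within the dimmest 25% too. Cd24a, S100b and Vim, which other neural cells also express, were within the brightest 25%. The rest of the 8, Rarres2, Prom1, Dynlrb2, Pltp and Tppp3, lay in the 25% next below. On the wild-type arrays Dynlrb2 gave 1432 to 2378 and Tppp3 763 to 1973. Foxj1, Mia, Rsph1, Ak7 and Calml4 lay between those and the dimmest 25%. Such ranks depend on the probes as well as on the RNA. The 37 genes are called ciliary below for short, although Pltp is no part of the cilium itself. Actb 3' to 5' ratios, a measure of RNA quality, were 1.87 to 1.88 for the wild-type, 1.49 to 1.67 for the Nf1-null and 1.73 to 1.85 for the GSC arrays. Sex-linked RNA differed between arrays: Xist, made by the inactive X chromosome of female cells, was 588 and 386 on wild-type and Nf1-null array 3 and between 30974.5 and 56641 on the other 7 arrays, and the Y-linked Eif2s3y was 73.2 on GSC array 2 and between 2400 and 10622 on the rest. What part these had in the results was not tested.

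GSC had lower signals than wild-type NSC for most ciliary genes. Of the 37 genes, 30 had a lower group mean and 7 a higher one, with a median log2 difference of -0.60 against -0.09 over all genes. After Benjamini-Hochberg adjustment over all 18193 genes (limma, adjusted p under 0.05), 11 of 37 fell and 0 rose, or 29.7%, where 5.60% of all genes fell. Of these calls, 4 were among the 5 individually named genes and 7 among the 22 Ift and Bbs genes (31.8%). The genes were chosen with earlier results of these data known, so these shares are no independent test. Among genes of the brighter 50% this background was 7.32%, and of the 24 ciliary genes there 10 fell, that is all called genes but Foxj1. All 3 GSC arrays lay below all 3 wild-type arrays for 23 of 37 genes, against 20.9% of all genes and 2481 of 9097 of the brighter 50%. With a variance prior that depends on mean signal the count of calls was 14 of 37, against 8.57% of all genes and 1176 of 9097 of the brighter 50%. Single arrays moved the count: it was 1 of 37 (Pltp) without wild-type array 2 or without GSC array 2, 2 without GSC array 3 and 5 without wild-type array 3, while the count over all genes in either direction went from 1649 to 214, 217, 262 and 458. With the mean of all probe sets of a gene it was 7. These are bulk cultures, in which fewer ciliated cells and less ciliary RNA per cell cannot be told apart.

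A pair of marker lists moved in the same comparison. All 15 proliferation markers had higher means in GSC than in wild-type NSC, 6 of them past the threshold, led by the replication clamp Pcna and the nucleotide reductase subunit Rrm2, with a median log2 difference of 2.43. Their summed signal lay between 24489 and 81147 for wild-type cultures, 88658 and 190514 for Nf1-null cultures and 159551 and 234189 for GSC. Of 12 astrocyte markers 11 were lower, 6 past the threshold, led by the folate enzyme Aldh1l1 and the water channel Aqp4, with a median of -1.84, and their sums were 316497 to 383963, 141580 to 250426 and 142977 to 188783 in the same order of groups. Of all genes, 3.46% rose and 5.60% fell in this comparison. Of the brighter 50% of genes, which hold 14 of the 15 and 10 of the 12 markers, 466 of 9097 rose and 7.32% fell. The part of either list in the ciliary differences was not tested.

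**Figure D1:**
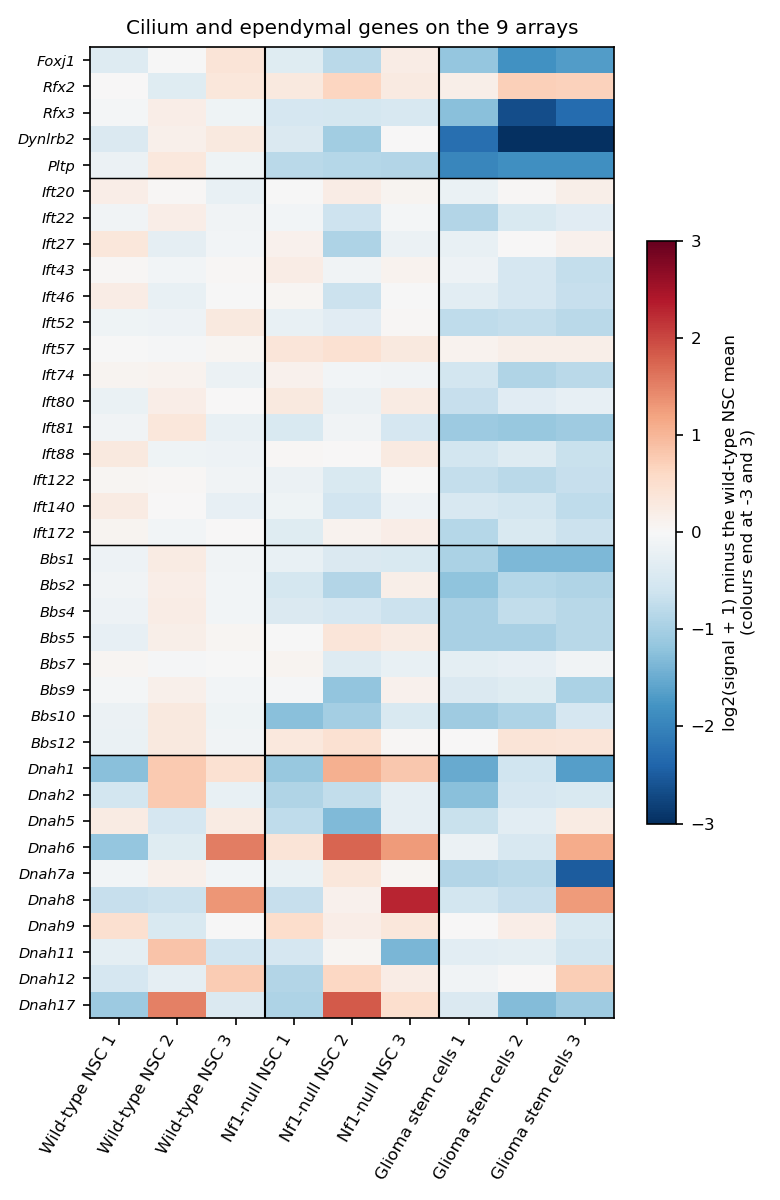
Log2(signal + 1) of each of the 37 genes on each of the 9 arrays, as the difference from the wild-type NSC mean of that gene, with blue for lower and red for higher and colours ending at -3 and 3. Rows are grouped as regulators with Dynlrb2 and Pltp, Ift, Bbs and Dnah genes. The 3 right-hand columns, GSC, are mostly blue for Ift and Bbs genes and mixed for Dnah genes.

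Among the transcription factors, Rfx3, which activates genes of both primary and motile cilia, gave 9218, 11006 and 8729 on the wild-type arrays, 6807, 6624 and 6928 on the Nf1-null arrays and 4010.3, 1522 and 1931 on the GSC arrays. The 3 groups did not overlap, with group means of 9651 ± 1199 (SD, n = 3), 6786 ± 153 and 2488 ± 1334, and the first GSC array was the highest of its group. In GSC Rfx3 fell 4.22-fold from wild-type NSC (log2 difference -2.08 ± 0.33, adjusted p = 0.0175). The difference from Nf1-null NSC was -1.58 ± 0.33 and did not pass (adjusted p = 0.0725, or 0.0175 with the variance trend). Its other, dimmer probe set gave -1.10 between GSC and wild-type NSC.

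Foxj1, the regulator that commits a cell to motile cilia, gave 610.1, 797 and 1052 on the wild-type arrays, 620.1, 454 and 939.9 on the Nf1-null arrays and 360.1, 225 and 250.4 on the GSC arrays. Every GSC array was below every NSC array, whereas the NSC groups overlapped. Foxj1 fell 2.92-fold in GSC against wild-type NSC (log2 difference -1.55 ± 0.33, adjusted p = 0.0328) and differed from Nf1-null NSC by -1.23 ± 0.33 (adjusted p = 0.131).

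Rfx2, a relative of Rfx3 best known from motile cilia and sperm, behaved otherwise, with 132, 101 and 164 on the wild-type arrays, 159, 205 and 156 on the Nf1-null arrays and 146, 213 and 209 on the GSC arrays. These groups overlapped, and the difference between GSC and wild-type NSC was 0.52 ± 0.24 (adjusted p = 0.226). Its 4 probe sets were dim and disagreed: the second brightest differed by -2.48 in that comparison, and the mean of all 4 by -0.61, so no direction can be given for Rfx2.

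Dynlrb2, a roadblock-type dynein light chain found in motile cilia and in ependyma, showed the largest difference of the 37 genes. Its signals were 1432, 2169 and 2378 on the wild-type arrays, 1439.8, 941 and 1974 on the Nf1-null arrays and 408, 220.2 and 174 on the GSC arrays. All GSC arrays were far below all NSC arrays, and the NSC groups overlapped. Between wild-type NSC and GSC Dynlrb2 fell 7.76-fold (log2 difference -2.96 ± 0.40, adjusted p = 0.0115), from 1993 ± 497 to 267 ± 124 (SD, n = 3 each). Against Nf1-null NSC it fell 5.53-fold (-2.47 ± 0.40, adjusted p = 0.0346, or 0.077 once replicate number was a block).

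Pltp, the phospholipid transfer protein, which is abundant in ependyma and is no part of the cilium itself, gave 2281, 3249.6 and 2353 on the wild-type arrays, 1474, 1429 and 1401 on the Nf1-null arrays and 669.6, 721 and 724 on the GSC arrays. Its 3 groups were fully separated, in the order wild-type NSC, Nf1-null NSC, GSC, and the Nf1-null and GSC arrays were each within a narrow range. It fell 3.68-fold between wild-type NSC and GSC (log2 difference -1.88 ± 0.17, adjusted p = 0.00528), the only one of the 37 genes to pass under all 19 alternatives tried. The difference from Nf1-null NSC was -1.03 ± 0.17 (adjusted p = 0.0369, or 0.0628 with the replicate block and 0.113 with the mean of its probe sets), and the dimmer Pltp probe set pointed the same way at -3.13 and -2.07.

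The calls of Rfx3, Foxj1 and Dynlrb2 depended on single arrays. Each was lost from the comparison with wild-type NSC without wild-type array 2 and without GSC array 2. Rfx3 and Foxj1 were also lost without GSC array 3, and Foxj1 without wild-type array 3 and without Nf1-null array 1.

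**Figure D2:**
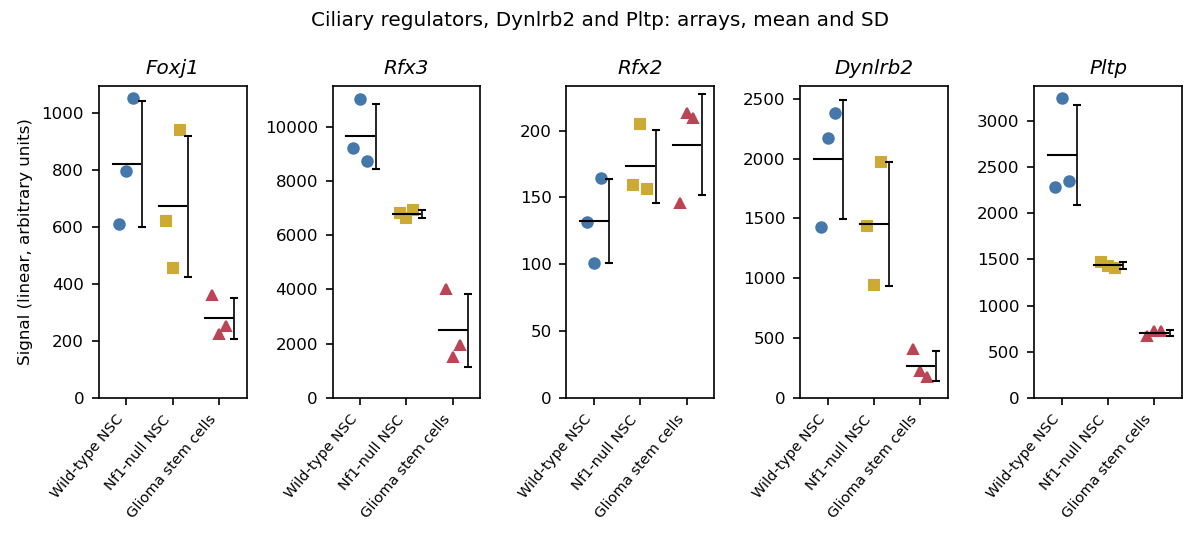
Linear signal in arbitrary units of Foxj1, Rfx3, Rfx2, Dynlrb2 and Pltp, with 1 point per array, a line at the group mean and a bar of 1 SD (n = 3 per group). The GSC points of Foxj1, Rfx3, Dynlrb2 and Pltp lie below all NSC points, and for Rfx2 the groups overlap.

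Promoters of these genes can be read beside the fall of Rfx3, because RFX factors bind a sequence named the X-box. RefSeq promoter windows on GRCm38.p6, covering 250 bases before to 50 after the start, were found for 33 of the 37 genes and searched on both strands. The X-box occurred in 3 of the 33 windows (9.09%; Bbs1, Dynlrb2 and Ift57) and in 1.53% of all 32851 windows, and a looser form in 8 of 33 (24.2%) and 5.53%. The RFX half-site GTTGCC, which is often the left part of an X-box and overlaps it, occurred in 12 of 33 (36.4%) and 12.5%. The forkhead motif GTAAACA, of the kind Foxj1 binds, occurred in 1 window (3.03%; Dnah17) and 3.65%. Windows differ in base composition and these shares were not tested.

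Dynlrb2 and Ift57 both have an X-box upstream of the start and are shown because their signals did not move alike, and Pltp is shown as a gene that fell with no match to these motifs in its window. Capitals mark X-boxes, each of which contains the half-site as its first 6 bases. The Dynlrb2 window is chr8:116504765-116505014 on the plus strand with an X-box at -51 to -39 from the start. Ift57 is at chr16:49699044-49699293, plus strand, with X-boxes at -87 to -74 and -60 to -48. Pltp is at chr2:164857709-164857958, minus strand. Each is the 250 bases that precede the start, 5′ to 3′.
Dynlrb2: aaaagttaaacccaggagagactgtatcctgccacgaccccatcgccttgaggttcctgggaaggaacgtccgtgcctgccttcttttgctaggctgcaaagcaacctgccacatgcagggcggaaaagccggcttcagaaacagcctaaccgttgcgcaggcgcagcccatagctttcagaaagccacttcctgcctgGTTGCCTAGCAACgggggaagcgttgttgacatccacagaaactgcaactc
Ift57: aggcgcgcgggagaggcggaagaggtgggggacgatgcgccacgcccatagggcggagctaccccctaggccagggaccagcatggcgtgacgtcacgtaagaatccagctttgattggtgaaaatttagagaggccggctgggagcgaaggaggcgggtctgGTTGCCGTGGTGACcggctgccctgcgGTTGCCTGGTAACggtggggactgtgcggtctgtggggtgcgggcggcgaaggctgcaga
Pltp: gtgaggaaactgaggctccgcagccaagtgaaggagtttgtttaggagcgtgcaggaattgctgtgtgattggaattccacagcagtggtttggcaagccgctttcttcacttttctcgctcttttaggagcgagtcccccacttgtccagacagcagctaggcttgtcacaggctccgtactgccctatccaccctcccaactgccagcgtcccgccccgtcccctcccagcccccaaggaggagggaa
Dynlrb2 fell 7.76-fold in GSC. Ift57, an IFT-B protein at the periphery of the complex, gave 3051, 3017 and 3231 on the wild-type arrays, 3976, 4223 and 3774 on the Nf1-null arrays and 3310.1, 3523 and 3522 on the GSC arrays, so that wild-type arrays were the lowest and the difference between GSC and wild-type NSC was 0.16 ± 0.13 (adjusted p = 0.486). Ift57 was picked for this display after its values had been seen. A motif match does not show that a factor binds, and a window without a match says nothing of sites elsewhere.

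Intraflagellar transport genes serve every cilium, primary or motile. Of 14 Ift genes, 12 had lower means in GSC than in wild-type NSC, with a median log2 difference of -0.54, and 4 fell past the threshold, 3 of the IFT-B core (Ift81, Ift74 and Ift52) and 1 of IFT-A (Ift122). All 14 were among the brighter 50% of genes, where 7.32% fell, against 28.6% of the Ift genes.

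Ift81, which with Ift74 binds tubulin for transport into the cilium, gave 3966, 5404 and 3643 on the wild-type arrays, 3098, 3978 and 3038 on the Nf1-null arrays and 1995, 1944 and 2039 on the GSC arrays. Each GSC array was below every NSC array, and the 3 GSC values were within a narrow range. It fell 2.15-fold against wild-type NSC (-1.10 ± 0.20, adjusted p = 0.0216). Of its other probe sets the brighter one gave -0.94 and a dim one 1.36, and with the mean of all its probe sets the difference was -0.23 and did not pass (adjusted p = 0.606). Its partner Ift74 gave 6206, 6332 and 5197 on the wild-type arrays, 6425, 5559.7 and 5494 on the Nf1-null arrays and 4007, 3149 and 3343 on the GSC arrays. The NSC groups overlapped and the GSC arrays lay below both. Ift74 fell 1.69-fold against wild-type NSC (-0.76 ± 0.16, adjusted p = 0.0329), and its difference from Nf1-null NSC was of like size and did not pass (-0.74 ± 0.16, adjusted p = 0.082).

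Ift52, which holds the IFT-B core together, gave 1879, 1848 and 2517 on the wild-type arrays, 1764, 1614 and 2097 on the Nf1-null arrays and 1208, 1258 and 1178 on the GSC arrays. GSC arrays were tightly grouped and below all NSC arrays. It fell 1.70-fold (-0.76 ± 0.18, adjusted p = 0.0405). Ift122, an IFT-A subunit needed for return transport and for entry of membrane receptors, gave 3844, 3771 and 3427 on the wild-type arrays, 3252, 2690.0 and 3665 on the Nf1-null arrays and 2252, 2101 and 2272 on the GSC arrays. It fell 1.67-fold (-0.74 ± 0.16, adjusted p = 0.0326, or 0.0502 with the replicate block), again with all GSC arrays below all NSC arrays.

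A further pair missed the threshold here and passed it both with the variance trend and when the brighter 50% of genes were tested alone. Ift140, an IFT-A subunit, gave 3861, 3318 and 2738 on the wild-type arrays, 2984, 2206 and 2929 on the Nf1-null arrays and 2328, 2248 and 1925 on the GSC arrays, and its difference from wild-type NSC was -0.60 ± 0.20 (adjusted p = 0.101, or 0.0477 with the trend). Ift172, the large IFT-B protein at the train's turning point, gave 1615, 1435 and 1548 on the wild-type arrays, 1181, 1647 and 1759 on the Nf1-null arrays and 844, 1116 and 983 on the GSC arrays, with a difference of -0.65 ± 0.20 (adjusted p = 0.0827, or 0.0487). For both the GSC arrays lay below all wild-type arrays, while Ift140 overlapped with Nf1-null NSC.

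Not all Ift genes had lower GSC signals. Ift20, which links the Golgi to the cilium, and Ift27, a small GTPase that works with the BBSome, differed from wild-type NSC by 0.00 ± 0.18 and -0.02 ± 0.29, and their groups overlapped. The other genes not yet named, Ift22, Ift43, Ift46, Ift80 and Ift88, had differences between -0.55 and -0.43, each with the GSC arrays below the wild-type arrays and none past the threshold. Such separation was seen for 11 of the 14 Ift genes, against 20.9% of all genes. Leaving out arrays reduced the Ift calls: all 4 were lost without wild-type array 2, without GSC array 2 and without GSC array 3, and Ift52, Ift74 and Ift122 also without wild-type array 1 or 3. Ift52 and Ift122 were lost without Nf1-null array 1 and without GSC array 1 as well. With the mean of all probe sets Ift52 and Ift122 also missed the threshold (adjusted p = 0.0548 and 0.0627), and with only the 6 arrays compared Ift52 and Ift74 did. With each array shifted to the same median, a setting that moves the median of all genes from -0.09 to 0.05, 2 of the 4 remained and 11 of 14 means were lower.

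The Bbs genes showed the same direction. BBSome subunits are coded by Bbs1, Bbs2, Bbs4, Bbs5, Bbs7 and Bbs9, and Bbs10 and Bbs12 code for chaperonin-like proteins that help assemble it. Of these 8 genes, 7 had lower means in GSC than in wild-type NSC, and in all 7 the GSC arrays lay below the wild-type arrays. Such separation was seen for 20.9% of all genes. The median log2 difference was -0.84, and Bbs1, Bbs4 and Bbs5 fell past the threshold. These are 37.5% of the Bbs genes, where 5.60% of all genes fell. Among the 9097 brighter genes, which hold 6 of the 8, 2481 were separated in this way and 7.32% fell.

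Bbs1, the subunit that docks the BBSome on the ciliary membrane through a GTPase, gave 1238, 1626 and 1277 on the wild-type arrays, 1177, 1011 and 999 on the Nf1-null arrays and 708, 539.5 and 539 on the GSC arrays. Its groups did not overlap, in the order wild-type NSC, Nf1-null NSC, GSC. It fell 2.32-fold in GSC against wild-type NSC (-1.21 ± 0.18, adjusted p = 0.0154), and the difference from Nf1-null NSC was -0.84 ± 0.18 (adjusted p = 0.0799). Bbs4, which links the complex to centriolar satellites, gave 1488, 1927 and 1559 on the wild-type arrays, 1212, 1159 and 1053 on the Nf1-null arrays and 834, 993 and 930.4 on the GSC arrays. The order was the same as for Bbs1, without overlap. It fell 1.80-fold against wild-type NSC (-0.84 ± 0.16, adjusted p = 0.025). Of its other 3 probe sets a pair gave -0.56 and -0.90, and a dim one gave 0.71. With the mean of all 4 the difference was -0.40 and did not pass (adjusted p = 0.291), and the call was also lost with only the 6 arrays compared.

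Bbs5, a lipid-binding subunit, had a different order, with 679.6, 907 and 840.0 on the wild-type arrays, 797, 1034 and 951 on the Nf1-null arrays and 412, 411 and 454 on the GSC arrays. Here the NSC groups overlapped and Nf1-null NSC had the highest mean. Bbs5 fell in GSC against both, 1.89-fold from wild-type NSC (-0.92 ± 0.17, adjusted p = 0.0246) and 2.16-fold from Nf1-null NSC (-1.11 ± 0.17, adjusted p = 0.032). Bbs2, a core subunit, gave 1282, 1570.2 and 1302 on the wild-type arrays, 955, 755 and 1567 on the Nf1-null arrays and 593, 756 and 741 on the GSC arrays. Nf1-null array 3 matched the wild-type range while the others were lower, and the difference between GSC and wild-type NSC was -0.99 ± 0.28 (adjusted p = 0.0652, or 0.0311 with the variance trend).

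Bbs10 was low in both Nf1-deficient groups, with 714, 979.6 and 739.7 in wild-type NSC against 337, 395 and 584 and 384, 419 and 562, at differences of -0.91 ± 0.26 (adjusted p = 0.181) and -0.84 ± 0.26 (adjusted p = 0.0896). Neither passed, and Bbs10 was named here after its values had been seen. Bbs7 and Bbs9 differed from wild-type NSC by -0.22 ± 0.16 and -0.59 ± 0.35, and Bbs12 by 0.26 ± 0.20. All 3 Bbs calls against wild-type NSC were lost without wild-type array 2, GSC array 2 or GSC array 3, and those of Bbs4 and Bbs5 also without wild-type array 3.

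**Figure D3:**
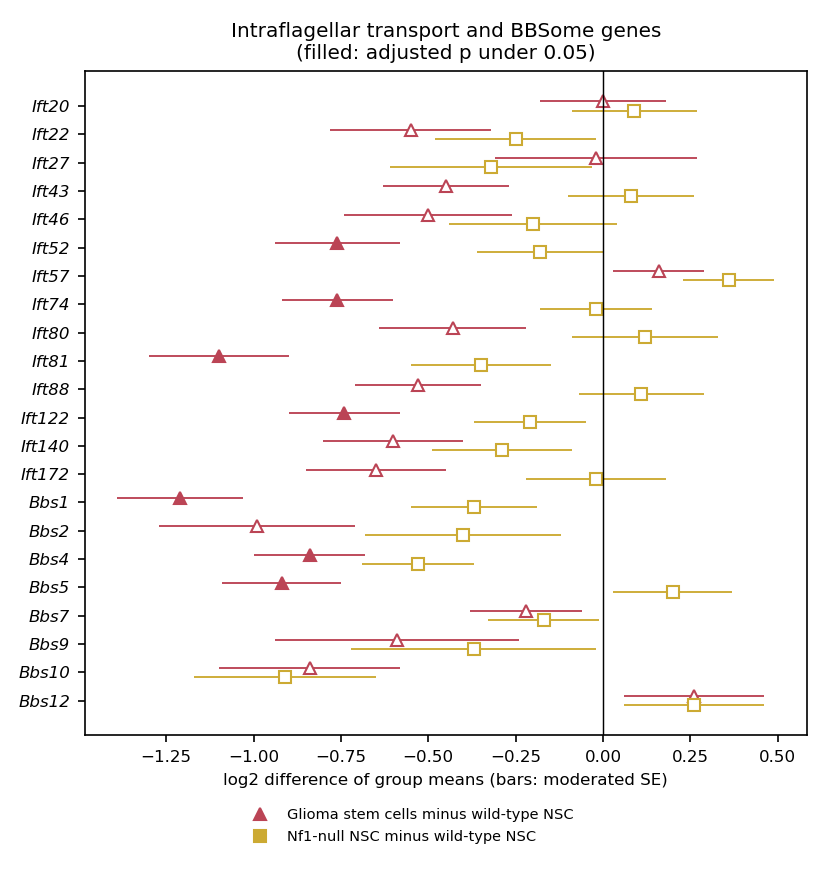
Log2 difference of group means with its moderated SE for the 14 Ift and 8 Bbs genes, as GSC minus wild-type NSC (triangles) and Nf1-null NSC minus wild-type NSC (squares), which share the wild-type arrays. Filled symbols passed an adjusted p of 0.05: 7 triangles, all left of 0, and no square.

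Axonemal dynein heavy chains, the motors of beating cilia, were dim. Only Dnah8 of the 10 Dnah genes was among the brighter 50%, and the median SD between replicates of genes in the dimmest 25% was 1.12 on the log2 scale, against 0.20 in the brightest 25%. Of the 10 genes, 7 had lower means in GSC than in wild-type NSC, with a median log2 difference of -0.32, and 0 passed the threshold (limma, n = 3 per group). At an unadjusted p under 0.05 the count was 19 of the 37 genes and 4781 of all 18193 genes. Dnah7a was the only Dnah gene among the 19. Differences from -1.25 (Dnah1) to 0.22 (Dnah12) in the other 9 genes had SE between 0.28 and 0.94, so changes of the size seen in Ift and Bbs genes were not detectable in most Dnah genes.

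Dnah7a, an inner-arm heavy chain, gave 181, 214 and 179.8 on the wild-type arrays, 166, 243 and 198 on the Nf1-null arrays and 103, 108 and 33.3 on the GSC arrays. It was the only Dnah gene whose GSC arrays lay below all NSC arrays, and was singled out for that after its values had been seen. The difference from wild-type NSC was -1.40 ± 0.43 (adjusted p = 0.087) and that from Nf1-null NSC -1.46 ± 0.43 (adjusted p = 0.155).

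Dnah8, an outer-arm heavy chain best known from sperm tails, followed the replicate number and not the group. It gave 898, 926 and 3645 on the wild-type arrays, 891, 1572 and 7077 on the Nf1-null arrays and 993, 896 and 3521 on the GSC arrays. Array 3 was the highest in each group, by a wide margin, and the group means did not differ beyond this spread (0.02 ± 0.94 between GSC and wild-type NSC, adjusted p = 0.994). Its other probe set lay between 12.8 and 124 and did not have array 3 highest in every group, so the pattern belongs to 1 of 2 probe sets.

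The remaining Dnah genes comprise the outer-arm chains Dnah5, Dnah9, Dnah11 and Dnah17 and the inner-arm chains Dnah1, Dnah2, Dnah6 and Dnah12. Dnah12 gave 3.2 to 12.1 over all arrays, Dnah5 65.4 to 197 and Dnah11 69.5 to 328, and in each of the 8 genes the groups overlapped in every comparison.

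**Figure D4:**
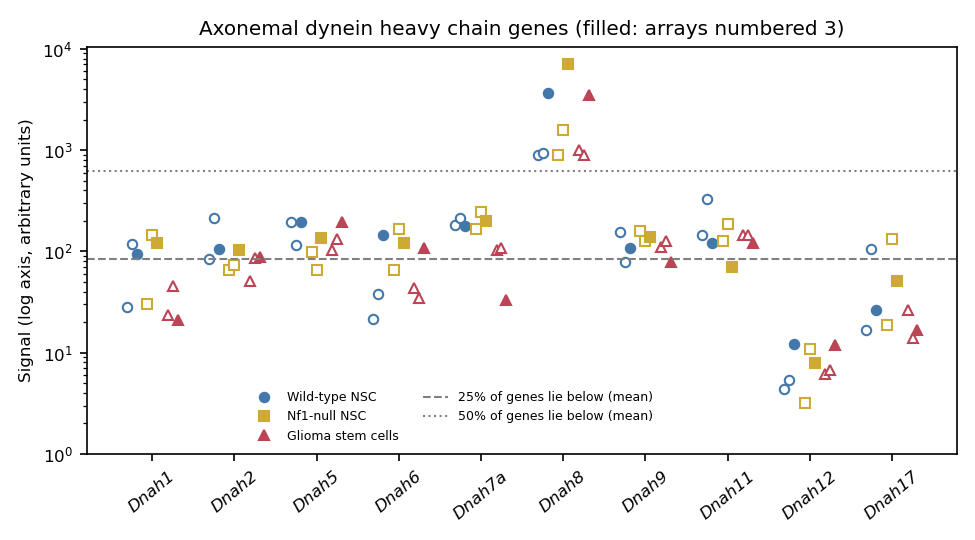
Linear signal of the 10 Dnah genes on each array, on a log axis, with arrays numbered 3 filled. The lower dashed line marks the mean signal below which 25% of all genes lie and the dotted line that for 50%. Only Dnah8 lies above the dotted line, with array 3 highest in each group.

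The NSC groups were compared to ask what changes when Nf1 is deleted in culture. Between Nf1-null and wild-type NSC, 23 of 37 means were lower and 14 higher, with a median log2 difference of -0.18 against -0.06 over all genes. In limma's test 0 of 37 ciliary genes passed, as did 0.00% of all 18193 genes, and 4 of the 37 and 3048 of all genes had an unadjusted p under 0.05. With the variance trend 1 of the 37, Pltp, fell (adjusted p = 0.0406), where 0.753% of all genes fell. Groups were separated with Nf1-null lower for 5 of 37 genes (Bbs1, Bbs4, Bbs10, Pltp and Rfx3), against 14.1% of all genes.

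Pltp had the smallest p of the 37 in this comparison, with Nf1-null arrays at 1474, 1429 and 1401 against 2281, 3249.6 and 2353 in wild-type NSC, a log2 difference of -0.85 ± 0.17 (adjusted p = 0.113). Rfx3 differed by -0.50 ± 0.33 (adjusted p = 0.493), Bbs1 by -0.37 ± 0.18 (adjusted p = 0.361) and Bbs4 by -0.53 ± 0.16 (adjusted p = 0.19). Dynlrb2 and Foxj1 differed by -0.49 ± 0.40 and -0.32 ± 0.33, with overlapping groups. Ift57 had its 3 Nf1-null arrays above all wild-type arrays, at 0.36 ± 0.13 (adjusted p = 0.222). Across Ift and Bbs genes together the median was -0.19, and 15 of 22 means were lower. Counted by same-numbered NSC arrays, 12 of the 37 genes were lower in Nf1-null NSC in all 3 pairs, 7 in 2 pairs, 12 in 1 pair and 6 in none. These pair counts were not made over all genes, of which 10092 of 18193 had lower means in Nf1-null NSC. They therefore show no shift particular to these genes. Proliferation markers were higher in Nf1-null NSC for 15 of 15 genes (median 1.96) and astrocyte markers lower for 12 of 12 (median -1.11), with 0 of either past the threshold.

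GSC were then set against Nf1-null NSC, cells that also lack Nf1. This comparison shares the GSC arrays with the one against wild-type NSC, so its values are given beside the earlier ones and are no second test. Of 37 genes 31 had lower means in GSC and 6 higher, with a median log2 difference of -0.53 against -0.04 over all genes. Dynlrb2, Pltp and Bbs5 fell past the threshold, 3 of 37 (8.11%) where 1.08% of all genes and 1.23% of the brighter 50% fell. The trend fit called 7, adding Bbs1, Ift74, Ift81 and Rfx3, where it called 2.34% of all genes and 297 of 9097 of the brighter 50% lower. GSC arrays were below all Nf1-null arrays for 17 of 37 genes, against 12.7% of all genes and 1418 of 9097 of the brighter 50%.

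By class, 13 of 14 Ift means were lower with a median of -0.53 and 0 called, 7 of 8 Bbs means with a median of -0.27 and 1 called, and 7 of 10 Dnah means with a median of -0.49 and 0 called. In this comparison the proliferation markers had a median of 0.56, with 15 of 15 higher and 0 past the threshold, and the astrocyte markers a median of -0.79, with 8 of 12 lower and 3 past it. Of all genes, 1.08% fell there. The 3 ciliary calls depended on the fit. With the replicate block only Bbs5 passed (adjusted p = 0.043), and 0 passed when only the 6 arrays compared were fitted. Of the 9 fits that left out 1 array, 6 gave no call, those without wild-type array 3, any of the Nf1-null arrays, or GSC array 2 or 3. Without wild-type array 1 and without wild-type array 2, 1 gene passed, and without GSC array 1, 6 did.

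Log2 group means of 18 of the 37 genes stood in the order wild-type NSC, Nf1-null NSC, GSC, 13 of them among the 22 Ift and Bbs genes and 1 among the 10 Dnah genes. How often the means of all genes stood in this order was not counted. For Bbs1, Bbs4, Pltp and Rfx3 this order held on every array, that is for 4 of 37 genes, where it held for 1.71% of all genes. Medians of the Ift and Bbs genes on each array, relative to the wild-type mean, were -0.04, 0.07 and -0.09 for the wild-type, -0.03, -0.36 and 0.01 for the Nf1-null and -0.63, -0.49 and -0.69 for the GSC arrays. The second Nf1-null array thus stood below the other pair of its group.

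Other genes of the cilium were counted in lists drawn up by function, to be read against the 5.60% of all genes that fell and the 3.46% that rose in GSC against wild-type NSC, and the 1.08% and 0.671% against Nf1-null NSC. Of 23 further transport genes measured (IFT subunits without an Ift symbol and the motors that pull the trains), 8 fell (34.8%, where 7.32% fell among the brighter 50% of genes, which hold 20 of the 23) and 1 rose in GSC against wild-type NSC, with a median log2 difference of -0.62. Dync2li1, a subunit of the motor for return transport, gave 3768, 5307 and 3291 on the wild-type arrays, 3303, 3515 and 3474 on the Nf1-null arrays and 1762, 1351 and 1236 on the GSC arrays. All GSC arrays were below all NSC arrays, and it fell 2.82-fold (-1.49 ± 0.22, adjusted p = 0.0144). Intermediate chains of that motor fell too, Wdr60 (-1.20, adjusted p = 0.0162) and Wdr34 (-1.19, adjusted p = 0.0228), as did the IFT-A subunit Wdr19 (-1.16, adjusted p = 0.0128). The gene that rose was Kif3c, a kinesin-II subunit (1.39 ± 0.29, adjusted p = 0.0311), named after its value had been seen. Against Nf1-null NSC, Hspb11 (an IFT-B subunit), Cluap1 (likewise) and Dync2li1 fell, with log2 differences of -1.08, -0.89 and -1.26 (adjusted p = 0.0263, 0.0411 and 0.0411), of which Cluap1 and Dync2li1 did not pass with the replicate block (0.072 and 0.0727).

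The transition zone is the gate at the base of the cilium. Of 32 of its genes measured, 4 fell (12.5%, where 7.32% fell among the brighter 50%, which hold 29 of the 32) and 0 rose against wild-type NSC, with a median of -0.38. B9d1, a subunit of the gate's MKS complex, gave 3050.5, 3047 and 1970.3 on the wild-type arrays, 2427, 2049 and 1522 on the Nf1-null arrays and 449, 142 and 261 on the GSC arrays. It fell 10.3-fold (-3.36 ± 0.42, adjusted p = 0.00966) against wild-type NSC and 7.66-fold (-2.94 ± 0.42, adjusted p = 0.0259) against Nf1-null NSC, with every GSC array below every NSC array. Rpgr, Tctn2 and Tmem216, further gate proteins, fell, with log2 differences of -1.55, -1.17 and -0.93 against wild-type NSC (adjusted p = 0.017, 0.0227 and 0.0446). Among 10 partners of the BBSome, Mks1, which is itself a gate protein, fell by 1.09 (adjusted p = 0.0367, or 0.0709 with the replicate block; median of the list -0.23).

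Signalling proteins of the ciliary membrane, 23 genes, had 1 gene lower (4.35%) and 1 higher and a median of -0.09, shares and a median near those of all genes. Mchr1, a receptor found in neuronal primary cilia, fell by 0.81 (adjusted p = 0.0385, or 0.0635 with the replicate block), and Pkd1, polycystin-1, rose by 0.70 (adjusted p = 0.0271). Of 13 genes of cilium disassembly 1 fell (7.69%, again near the share of all genes), with a list median of 0.11. It was Tchp, a brake on cilium growth, which fell by 1.09 (adjusted p = 0.0177).

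Genes that form the moving axoneme, 88 measured and mostly dim (13 among the brighter 50%), had 17 lower (19.3%) and 0 higher against wild-type NSC, 70 of 88 lower means and a median of -0.76. Nme5, a protein of the radial spokes, gave 977, 1102 and 962 on the wild-type arrays, 552, 506 and 884 on the Nf1-null arrays and 182, 160.2 and 171 on the GSC arrays. All 3 GSC arrays were well below all NSC arrays, and Nme5 fell 5.89-fold against wild-type NSC (-2.56 ± 0.22, adjusted p = 0.00528) and 3.65-fold against Nf1-null NSC (-1.87 ± 0.22, adjusted p = 0.0158). Wdr78, an intermediate chain of an inner dynein arm, gave 882, 820.5 and 862 on the wild-type arrays, 663, 769 and 1006 on the Nf1-null arrays and 190.1, 198 and 98.1 on the GSC arrays, and fell 5.50-fold and 5.16-fold (adjusted p = 0.0094 and 0.0175). Tppp3, a tubulin-binding protein of ciliated epithelia, gave 763, 1973 and 1847 on the wild-type arrays, 1204, 908 and 1187 on the Nf1-null arrays and 136, 193 and 218 on the GSC arrays, and fell 7.83-fold and 6.07-fold (adjusted p = 0.0101 and 0.0275). Stk33, a kinase, was dim throughout at 4.1 to 164, and fell, with log2 differences of -4.05 and -3.75 (adjusted p = 0.00873 and 0.0178, the latter 0.052 with the replicate block). Against Nf1-null NSC 5 of the 88 fell, these 4 and Cfap54 (-3.17, adjusted p = 0.0336), a part of the central apparatus named after its value had been seen. Thus 0 of 10 Dnah genes and 17 of 88 other genes of motile cilia passed against wild-type NSC, and these shares were not compared by a test.

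Regulators of multiciliated cells and centriole amplification, 22 genes, had 2 lower (9.09%), 4 higher and a median of 0.17. Gmnn (geminin, which restrains DNA replication), Stil and Plk4 (both needed for centriole duplication) and the forkhead factor Foxn4 rose by 2.59, 2.04, 2.14 and 2.88 (adjusted p = 0.0331, 0.0346, 0.04 and 0.0354). E2f5, an E2F factor of multiciliated cells, and Rfx4, an RFX factor of brain and glia, fell, with log2 differences of -0.75 and -3.44 (adjusted p = 0.0383 and 0.0429). With the replicate block Foxn4 and Rfx4 did not pass (0.0614 and 0.0622). Foxn4 was dim, at 19.8 to 25.1 on the wild-type arrays. Plk4 and Rfx4 were named after their values had been seen. Gmnn and Stil are also cell cycle genes, in samples where the 15 proliferation markers above were all higher. What part proliferation had in their rise was not tested.

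Lipid transfer and lipoprotein genes, listed beside Pltp, had 1 lower (7.69%) and 2 higher of 13 and a median of 0.09. Clu, clusterin, fell by 2.21 (adjusted p = 0.0179). Lpl, lipoprotein lipase, rose by 3.77 against wild-type NSC and 3.27 against Nf1-null NSC (adjusted p = 0.00873 and 0.0222), and Apod, apolipoprotein D, rose by 6.24 (adjusted p = 0.0367), with the GSC arrays at 502, 5459 and 19746. In none of the 8 lists did a gene pass between Nf1-null and wild-type NSC.

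List counts depended on single arrays. Against wild-type NSC, further transport genes that fell numbered 2 without wild-type array 2 or 3, 3 without wild-type array 1, 0 without GSC array 2 and 1 without GSC array 3. Transition zone genes numbered 1 without wild-type array 2 or GSC array 3, 2 without wild-type array 1, wild-type array 3 or GSC array 2, 6 without GSC array 1, and 8 with the variance trend or among the brighter 50%. Genes of the motile axoneme numbered 5 without wild-type array 2, 10 without wild-type array 3, 7 without GSC array 2 and 9 without GSC array 3, and 5 of 13 when only the brighter 50% of genes were tested. Of the multiciliated cell regulators, 0 passed in either direction without wild-type array 2 or 3 and without GSC array 2 or 3, and without GSC array 1 the count was 2 lower and 0 higher. Against Nf1-null NSC the axoneme count was 1 without Nf1-null array 2 or 3, without GSC array 3 and with only the 6 arrays compared, 3 without Nf1-null array 1 or GSC array 2, and 9 with the variance trend. The transport count there was 0 without wild-type array 1, any of the Nf1-null arrays, or GSC array 2 or 3, 1 without wild-type array 2 or 3, and 1 with the replicate block.

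**Figure D5:**
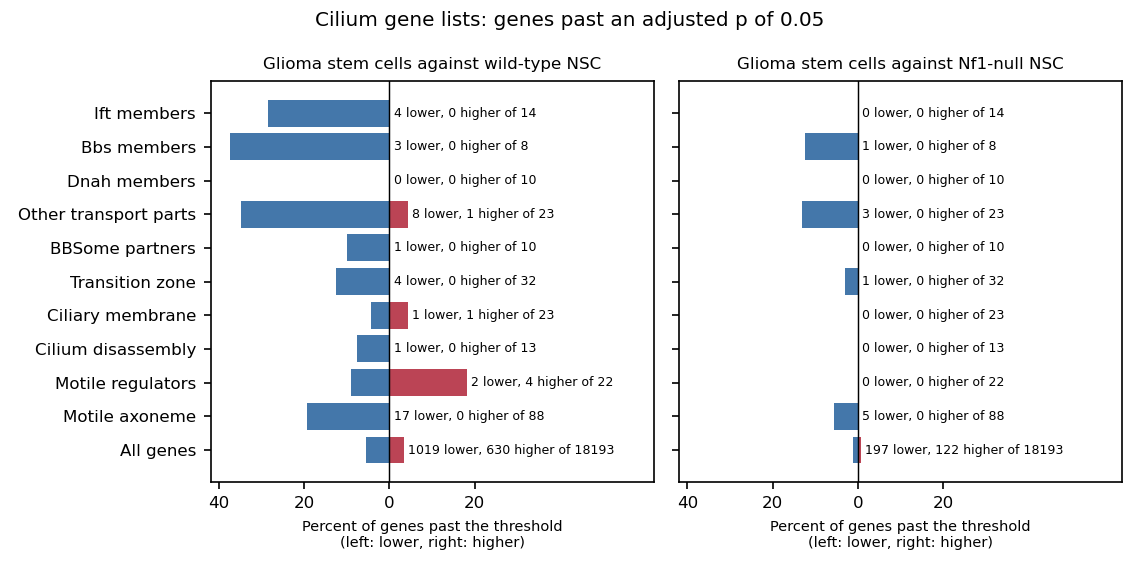
Percent of genes past an adjusted p of 0.05 in each class of the 37 genes and in each list of other cilium genes, to the left for lower and to the right for higher in GSC, against wild-type NSC (left panel) and Nf1-null NSC (right panel). Counts stand beside the bars, from 0 of 10 Dnah genes to 17 of 88 motile axoneme genes in the left panel, with all genes in the lowest bar.

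Markers of cells that the cultures could hold were checked in the comparison with wild-type NSC. Their counts are to be read against the 5.60% of all genes that fell and the 3.46% that rose. The ependymal list had 7 of 20 genes lower and 1 higher (median -0.83), but it holds 3 of the 37 genes. Its summed signal, set mainly by its brightest genes, was not lower: 112960 to 147529 for the wild-type, 131630 to 157789 for the Nf1-null and 142913 to 150754 for the GSC arrays. Beside Pltp, Tppp3, Dynlrb2 and Foxj1, the called genes were Enkur (-4.55, adjusted p = 0.0166), Rsph1 (-0.89), Fam183b (-4.34) and, upward, the chemoattractant Rarres2 (2.16, adjusted p = 0.0498), the last 3 named after their values had been seen. Fam183b did not pass with the replicate block (adjusted p = 0.0612). Tppp3, Enkur, Rsph1 and Fam183b are also among the motile axoneme genes counted above. Every lowered call of the ependymal list had thus been counted before, and the list is no separate check.

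Choroid plexus markers had 1 of 14 lower, the homeobox factor Otx2, and a median of -0.76. Otx2 gave 637, 1837 and 1766 on the wild-type arrays, 985, 2887 and 2032 on the Nf1-null arrays and 6.9, 2.5 and 2.9 on the GSC arrays, so it was near the bottom of the scale in GSC and not in either NSC group. Ttr, the defining product of choroid plexus, lay at 5.3 to 107, within the dimmest 25% of genes. Tanycyte markers had 1 of 13 lower, Fndc3c1 (-5.39, adjusted p = 0.0211), and a median of -0.14. The shares lower, 7.14% for choroid plexus and 7.69% for tanycyte markers, were near the share of all genes.

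Among 13 neural stem cell markers Msi1, Sox9 and Slc1a3 fell (-1.12, -1.38 and -1.14), Hes1 rose (by 0.88), and the median was -0.30. With the replicate block Msi1, Slc1a3 and Hes1 did not pass (adjusted p = 0.0656, 0.0875 and 0.0538). Sox9 and Slc1a3 are also on the astrocyte list. Of 11 neuron markers Rbfox3, Snap25 and Slc17a6 fell, with a median of -0.13. Slc17a6 was dim, at 9.1 to 11.9 on the GSC arrays. Acta2 was the 1 fibroblast and mural marker of 10 to fall (median 0.61) and Emcn the 1 endothelial marker of 9 (median 0.24), the latter lost with the replicate block (adjusted p = 0.0696). Oligodendrocyte lineage markers had 0 of 12 past the threshold either way (median 0.51) and microglial markers 0 of 10 (median 0.03). No endothelial or microglial marker was among the brighter 50% of genes. What part any of these cells had in the ciliary differences was not tested.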

How the data were processed

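The 9 arrays (Affymetrix Mouse Genome 430 2.0) were hybridised with biotin-labelled cRNA, made per the labels from 100 ng of RNA. The deposited values are linear signal intensities per probe set, with a trimmed mean (2% at each end) of 1500 on every array. Their software was not given in the sources used. Of 45101 probe sets, 64 controls were left out. Through GEO's platform annotation 34945 had 1 symbol, 932 several and 9160 none, and the brightest probe set by mean log2 stood for each of 18193 genes.

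Values were taken as log2(intensity + 1) and fitted with limma 3.58.1 in R 4.3.3, with 3 group means over all 9 arrays (6 residual and 1.63 prior degrees of freedom) and Benjamini-Hochberg adjustment. In a fold change of dim genes the added 1 and the background weigh most. Same-numbered wild-type and Nf1-null arrays deviated together (r = 0.64, 0.24 and 0.59 over the brighter 50% of genes). Replicate number was therefore used as a block in an alternative. The block also covers the GSC, which came from other animals. For same-numbered GSC and NSC arrays r lay between 0.05 and 0.3, so a pairing of GSC by number is not established. The other alternatives were scaling, probe set summary, pseudocount, brightness filter, variance trend, the arrays fitted and leaving out each array. An exact permutation test of 3 against 3 arrays cannot go below 0.10. Array number limits the precision.

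The genes and lists were chosen with earlier results of these data known. Ciliary genes past the threshold in either the plain or the trend fit, and the 5 regulators and markers, were named with all values, as were up to 4 called genes with the smallest p in each list. Promoters came from RefSeq (GRCm38.p6).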

Additional observations from a re-analysis of the deposited data

How the results depend on the processing

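The number of the 37 genes past the threshold depended on the fit. Between GSC and wild-type NSC it was 11 in the reported fit, 7 with the mean of all probe sets of a gene and 1 to 12 when 1 array was left out, falling to 1 without wild-type array 2 (Pltp), 1 without GSC array 2 (Pltp), 2 without GSC array 3 and 5 without wild-type array 3. Between GSC and Nf1-null NSC it was 3, and 8 among the brighter 50% of genes, 7 with the variance trend, 7 with the trend and a replicate block together (an alternative added after the data had been seen), 0 with only the 6 arrays compared, 1 with the replicate block and 0 to 6 with 1 array left out. Between Nf1-null and wild-type NSC it was 0, and 1 among the brighter 50%, 1 with the trend and 1 with the trend and block. Where the replicate number was used as a block without the trend, Ift122 lost its call against wild-type NSC (10 calls in place of 11), and Dynlrb2 and Pltp theirs against Nf1-null NSC. It changed no other call of the 37 genes. Among genes of the cilium lists it ended 7 of 43 calls against wild-type NSC and 3 of 10 against Nf1-null NSC, and among marker genes 6 of 26 and 6 of 11.

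The median log2 difference of Ift and Bbs genes between GSC and wild-type NSC was -0.59, and -0.46 with arrays shifted to the same median. Between GSC and Nf1-null NSC it was -0.42, and -0.59 to -0.33 with 1 array left out. Over all 37 genes and 3 comparisons, 33 of 111 differences changed sign under at least 1 alternative, 0 of them called. For 16 of the genes reported with all values, which give 48 of these comparisons, 903 values were computed under the alternatives. Of these, 778 kept their direction and side of the threshold, 82 lost a call, 30 gained one and 13 changed sign, in 6 of the 48 comparisons. Ift57, Bbs10 and Dnah8, also given with all values, were not among the 16 and changed sign as well. Dnah8 did so in all 3 comparisons (-0.62 to 0.68 between GSC and wild-type NSC). Ift57 did so between GSC and wild-type NSC (-0.09 to 0.29), and Bbs10 between GSC and Nf1-null NSC (-0.14 to 0.30). For Ift172, comparing the NSC groups, the values were 0.01 with quantile normalization, 0.04 with arrays shifted to the same median and -0.13 to 0.15 with 1 array left out. For Ift74 in that comparison they were 0.05 with arrays shifted and -0.11 to 0.03 with 1 left out, and for Dnah7a -0.08 to 0.20 with 1 left out. For Rfx2 the mean of its 4 probe sets gave -0.36 between Nf1-null and wild-type NSC, -0.61 between GSC and wild-type NSC and -0.25 between GSC and Nf1-null NSC. The causes of these changes were not tested, other than that a fit with fewer arrays has fewer degrees of freedom. Most Dnah genes and axoneme genes lie low on the intensity scale, where the spread between replicates is widest.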
